A study of Equus asinus with 3 samples.

Results

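The macrophages and monocytes of the donkey (Equus asinus) epididymal corpus, the middle stretch of the duct in which sperm mature, were described from single-cell RNA sequencing. They were taken as the corpus barcodes with at least 2 unique molecular identifiers (UMIs, each standing for 1 captured transcript molecule) summed over CD68, CD163, CSF1R, C1QA, C1QB, C1QC, CD14, AIF1 and TYROBP. This sum also had to be at least that of the T cell genes CD3E, CD3D, CD3G, CD2, CD5, CCL5, IL7R and LCK. The rule chose 404 of 9611 corpus barcodes (4.20%, 95% interval 3.81 to 4.62), of 27699 in the series. The series holds 1 library each of epididymal corpus, epididymal caput (the head of the duct) and testis, from sexually mature males. The 3 animals of the series are not tied to libraries in the sources used here, so region, animal and library cannot be told apart. Before loading on DNBelab C4 droplets all tissue had been in storage solution (48 h at most) and then in collagenase IV and DNase I (15 min, 37 C), and no sort is described. With 1 library a region no difference has a replicate check, no p-value is given, and every interval (95%) covers counting error only.

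Macrophages are the resident phagocytes of the epididymal wall, where, as known best from the mouse, they lie around and between the epithelial cells, take up debris and spent sperm, and help keep the immune system tolerant of sperm. They arise from embryonic precursors or from blood monocytes that enter the tissue. C1QA, C1QB and C1QC encode the chains of C1q, the recognition unit of the classical complement pathway, and CD163 encodes a scavenger receptor for haemoglobin. CD14 is a co-receptor for bacterial lipopolysaccharide that is strong on monocytes, CSF1R is the receptor for the survival factor CSF1, TYROBP is a signalling adaptor, AIF1 binds actin and calcium, and CD68 is a lysosomal membrane protein.

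The chosen barcodes held 218718 UMIs (5.28% of the 4142512 in the corpus library), with a median of 472 UMIs and 373.5 genes per barcode, against 369 UMIs in all other corpus barcodes. The caput library held 13203203 UMIs, and its 700 barcodes chosen by the same rule had a median of 1311.5 UMIs. This gap in depth stands beside every comparison of the regions. Corpus barcode names recur in caput (8957), but they are serial numbers up to 9611 and do not mark shared cells. No mitochondrial gene was among the features (0), so that sign of damage could not be read, and 9.16% of the chosen barcodes were merged from more than 1 bead, against 3.54% of the others. No doublet caller was run.

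The rule rests on few molecules. Of the 404 barcodes, 137 had exactly 2 UMIs of the 9 genes, 80 had 3, 52 had 4 and 135 had 5 or more, with 33 at most. Just outside it lay 517 barcodes with 1 such UMI. CD74, the invariant chain that escorts MHC class II molecules and is not in the rule, stood at 16575 CPM (UMIs of a class, scaled to a sum of 1e6) at exactly 2 UMIs, 5785 at 1 and 403 at 0. LYZ, the secreted bacteria-degrading enzyme lysozyme, stood at 4253, 1047 and 75.1 CPM. At sums of 7 to 10 LYZ lay between 577 and 1678 CPM while CD74 lay between 15873 and 21852. The members held 77.0% of the 9 genes' UMIs in the library, but 59.1% of those of CD74 and 59.7% of those of LYZ. Barcodes with 1 UMI thus carried intermediate levels of both genes, and the members are not all the corpus cells of this kind.

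**Figure D1:**
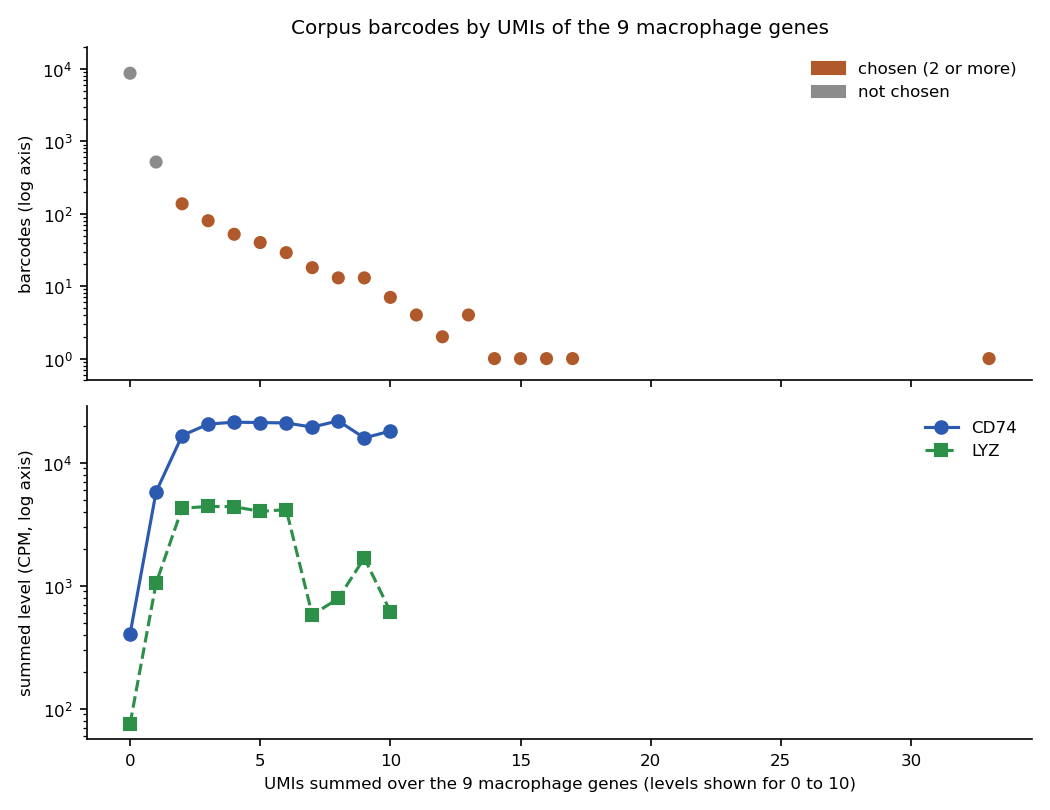
Upper panel: number of corpus barcodes (log axis) at each sum of UMIs over the 9 macrophage genes; orange points are chosen barcodes and grey points are not. Lower panel: level of CD74 and LYZ (CPM, log axis) summed over all corpus barcodes at sums of 0 to 10, where CD74 stands at 403 CPM at 0, 5785 at 1 and 16575 at 2.

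The genes of the rule are given as a description, since they chose the members. TYROBP was seen in 260 of 404 barcodes (64.4%), C1QB in 160 (39.6%), CD14 in 148 (36.6%), C1QA in 147 (36.4%), C1QC in 104 (25.7%), CSF1R in 103 (25.5%), AIF1 in 78 (19.3%), CD68 in 69 (17.1%) and CD163 in 24 (5.94%). Genes were mostly seen in combination, since 339 barcodes had at least 2 of the 9 and 196 at least 3. TYROBP alone brought in 39 barcodes, and 37 carried any T cell UMI.

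The label was checked against genes outside the rule. CD74 was seen in 95.05% of the chosen barcodes (92.5 to 97.0), against 12.5% of 136 corpus T and NK barcodes (at least 2 UMIs of the 8 T cell genes and more of these than of the macrophage genes; median 399.5 UMIs), and LYZ in 44.1% (39.2 to 49.1) against 0.735%. All 22 measured genes of a general macrophage list had UMIs, and their summed level was 9821 CPM, against 3784 in T and NK, 1286 in epithelial and 590 in stromal barcodes. Of 7 mast cell genes 5 were at 0 UMIs in the members (CPA3, HPGD, MS4A2, TPSB2 and HDC), and the list summed to 32.0 CPM, against 91.2 in T and NK barcodes. Of 9 B and plasma cell genes 3 were at 0 (CD79B, MZB1 and TNFRSF17), with a sum of 187 CPM against 137. Of 24 T and NK genes outside the rule 2 were at 0 (PRF1 and TBX21), and the list summed to 585 CPM, against 3237 in T and NK barcodes. Monocyte and granulocyte genes were mixed. Of 19, 14 had UMIs and the list summed to 2373 CPM, against 804 in all other corpus barcodes and 1594 in stromal ones. Against all other corpus barcodes 6 of 9 genes tested were higher in the members and 0 lower (median log2 ratio 1.66). Over all 14970 genes tested 3.52% were higher (median -0.79). The other 5 (S100A8, S100A9, CSF3R, CD300E and NFAM1) were at 0, which has a limit of 13.7 CPM, and CCR2 had 18 UMIs, S100A12 6 and VCAN 5. S100A4 and CFP, both in this list and higher, had been named beforehand as markers of these barcodes from the same data. So had NR4A2, outside the list. Their calls are descriptions and no check of the label. Of 14 dendritic cell genes 13 had UMIs, and the list summed to 6629.5 CPM, against 3250.2 in all other corpus barcodes. IDO1, which degrades tryptophan and was also at 3921 CPM in T and NK barcodes, made up 6031 CPM of that sum, while FLT3 had 21 UMIs, BATF3 12, CLEC9A 7 and CCR7 0. RNA of other cells was also present. The stromal list summed to 5290 CPM in the members, 15501 in T and NK and 85571 in stromal barcodes. It had a UMI in 212 members (52.5%) and at least 5 UMIs in 32. For the stromal gene DCN, 5 members held 126 of 510 UMIs. The luminal secretory list summed to 535 CPM in the members, 1550 in T and NK and 62104 in epithelial barcodes.

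**Figure D2:**
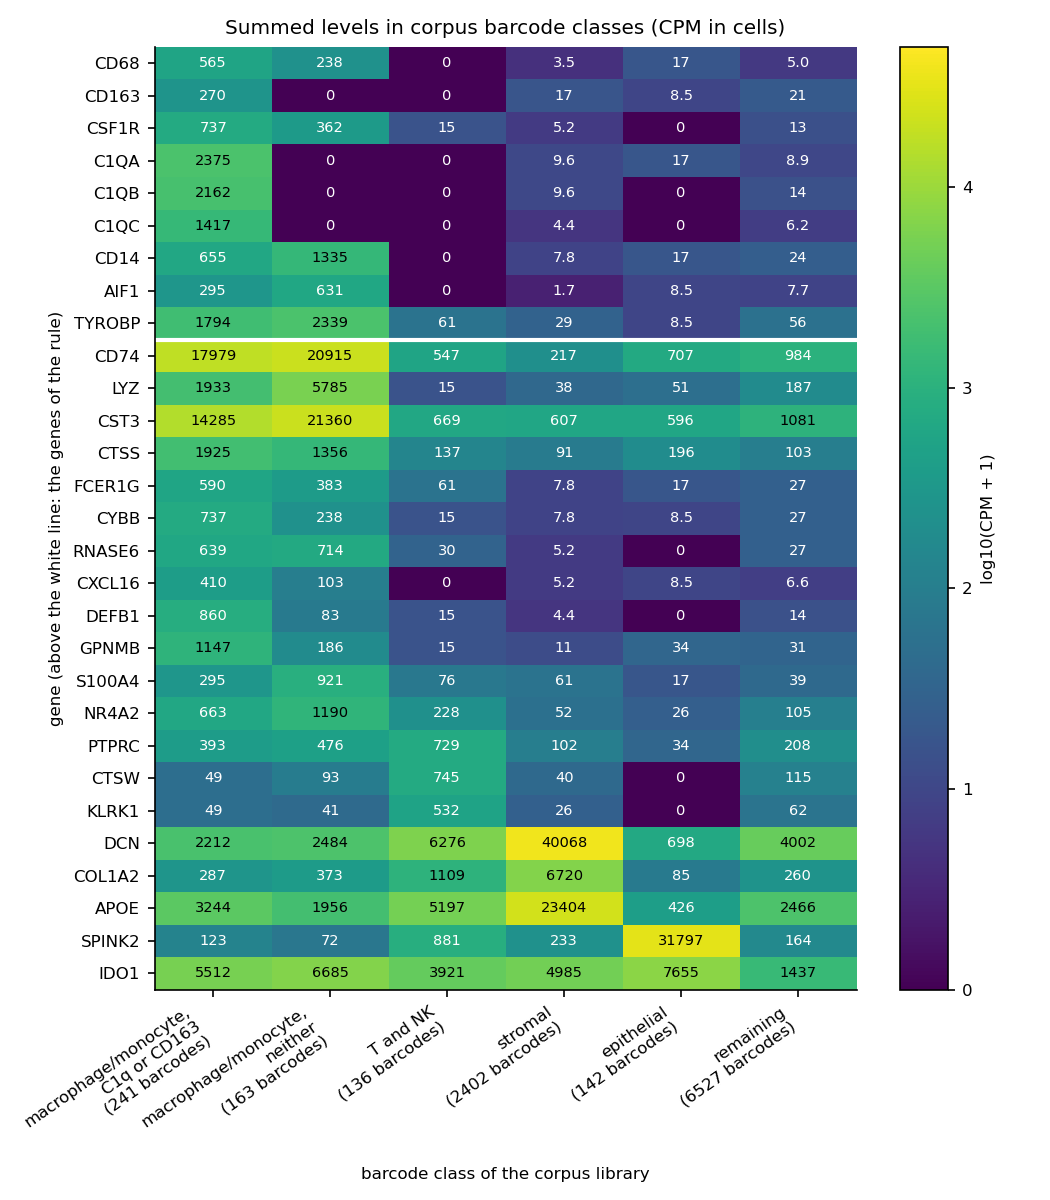
Summed level (CPM, written in each cell; colour is log10 of CPM + 1) of 29 genes in 6 classes of corpus barcodes, with the number of barcodes under each class; genes above the white line belong to the rule. CD74, LYZ, CST3 and the genes below them down to NR4A2 are brightest in the left 2 columns, which are the chosen barcodes with and without C1q or CD163.

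Set against all other corpus barcodes, the members carried more of the machinery of digestion and antigen presentation and less of the matrix. A gene is called higher or lower where both bounds of its ratio were past 2-fold and its higher side had at least 20 UMIs. By this rule 527 of 14970 genes were higher (3.52%) and 232 lower (1.55%). These counts describe barcodes that were chosen by expression and carry no test. CD74 stood at 19276 against 744 CPM (25.9-fold, 24.7 to 27.2) and LYZ at 3635 against 137 CPM (26.6-fold, 23.8 to 29.7). In the antigen presentation list 5 of 9 genes tested were higher and 0 lower (median log2 ratio 2.13, against -0.79 over all genes). The files name no MHC class II chain by symbol, so CD74 stands for that pathway here. Of 30 lysosomal genes, 15 were higher and 0 lower (median 1.60), among them the cathepsins CTSZ (937 against 31.9 CPM, 29.4-fold, 23.4 to 37.1), CTSS, which trims the invariant chain (1673 against 102 CPM, 16.3-fold), and CTSH (850.4 against 70.6 CPM, 12.05-fold). The lysosomal list summed to 12294 CPM in the members, 4377 in T and NK, 6503 in stromal and 28229 in epithelial barcodes. A high sum of this list was therefore not particular to the members.

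Receptors and secreted products of macrophages followed. DEFB1, a beta-defensin, stood at 517 against 10.7 CPM (48.3-fold, 33.6 to 70.5), although 5 barcodes held 51 of its 113 UMIs. CXCL16, a membrane-bound chemokine and scavenger receptor, stood at 274 against 6.12 CPM (44.8-fold, 27.5 to 75.3), the pore-forming protein MPEG1 at 329 against 8.67 (38.0-fold) and the lipid receptor TREM2 at 101 against 2.80 (35.9-fold). Levels were likewise higher for RNASE6, an antimicrobial ribonuclease (672 against 19.9 CPM, 33.8-fold), C5AR1, the receptor for complement C5a (338 against 10.7, 31.6-fold), and CYBB, the catalytic subunit of the phagocyte oxidase (517 against 20.4, 25.3-fold). The iron-storage chains FTL (1879 against 184 CPM, 10.2-fold) and FTH1 (3187 against 361, 8.83-fold) were higher too. Among lower genes were those of the stroma, 13 of 20 tested with 0 higher, such as the matrix proteoglycan DCN (2332 against 14496 CPM, 6.22-fold lower). Of 57 ribosomal protein genes 53 were higher. These genes made up 6.81% of UMIs in the members and 7.53% in T and NK barcodes. In the 6527 remaining barcodes, which fall in no named class, they made up 1.64%. These are most of the 9207 other barcodes, so the calls of this comparison are largely set against a ribosomal-poor class.

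The T and NK barcodes of the same library, at a similar median depth (399.5 UMIs), gave a second comparison. Here 111 of 1349 genes were higher in the members (8.23%) and 21 lower (1.56%). LYZ had 1 UMI in all T and NK barcodes (3635 against 15.2 CPM). CD74 was 35.2-fold higher (25.4 to 50.4), the protease inhibitor CST3 26.0-fold (17410 against 669 CPM, 19.4 to 35.9), the carboxypeptidase CPVL 37.8-fold (1148 against 30.4 CPM) and CTSZ 30.8-fold. Genes at 0 UMIs in T and NK barcodes included CD83, a surface protein of antigen-presenting cells (576 CPM, at least 12.6-fold higher), C5AR1 (at least 7.42-fold), CXCL16 (at least 6.02-fold), the apoptotic cell receptor TIMD4 (183 CPM, at least 4.01-fold) and the transcription factor SPI1 (137 CPM, at least 3.01-fold). These bounds set 0 UMIs at a floor of 3 over the class, and 1 UMI in T and NK barcodes equals 15.2 CPM. Among lists, 8 of 15 general macrophage genes were higher and 0 lower (median log2 ratio 2.87, against 0.53 over all genes), as were 5 of 10 resident macrophage genes (3.19) and 7 of 23 lysosomal genes (1.73). Lower in the members were the receptor chain CD247 (18.3 against 395 CPM, 21.6-fold), KLRK1 (45.7 against 532, 11.6-fold) and CTSW (68.6 against 745, 10.9-fold), all of T and NK cells. The lists of ribosomal protein genes (0 of 56 past the rule, median -0.06) and heat shock genes (0 of 7, median -0.01), both mostly higher against all other barcodes, gave no call here. Of the 527 genes, 91 were past the rule against T and NK, stromal and epithelial barcodes alike.

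The members were next split by whether they had a UMI of C1q or CD163, which are genes of the rule. A UMI of C1QA, C1QB, C1QC or CD163 was seen in 241 barcodes (59.7%, 54.7 to 64.5; median 440 UMIs) and in 0 of the other 163 by definition (median 544 UMIs). The second set was therefore not the shallower one, but it held more barcodes merged from more than 1 bead (13.5% against 6.22%). Of 853 genes, 25 were higher in the C1q or CD163 barcodes (2.93%) and 6 lower (0.703%). In the list of resident macrophage genes 5 of 8 tested were higher and 0 lower (median log2 ratio 2.15, against 0.07 over all genes). The list summed to 4767 CPM in the C1q or CD163 barcodes and 1718 CPM in the others. T and NK barcodes stood at 1231 CPM and stromal barcodes at 4308 CPM, so the list is not particular to macrophages. The sum therefore cannot show whether the second set expressed these genes. Against all other corpus barcodes 7 of 18 of them were higher in the members and 0 lower (median -0.09, against -0.79 over all genes).

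The genes higher beside C1q were those of uptake, lipid handling and the lysosome. FOLR2, the folate receptor of resident macrophages, stood at 287 against 10.3 CPM (27.7-fold, from 4.66), its lower value resting on 1 UMI. PLTP, which transfers phospholipids, stood at 541 against 51.7 CPM (10.4-fold, 4.26 to 33.2), and the fatty-acid carrier FABP5 at 631 against 104 CPM (6.09-fold). DEFB1 (860 against 82.8 CPM, 10.4-fold, 5.08 to 24.7) and GPNMB, a glycoprotein of lysosome-rich macrophages (1147 against 186 CPM, 6.16-fold, 3.76 to 10.7), were concentrated in few barcodes. GPNMB had 158 UMIs in 31 members, 59 of them in 5 barcodes. TIMD4 (287 against 51.7 CPM, 5.54-fold), the selenium carrier SELENOP (1065 against 310, 3.43-fold) and NPC2, a lysosomal cholesterol carrier (1851 against 600.2, 3.08-fold), were also higher. GNLY, a granule protein of cytotoxic lymphocytes, passed the rule (262 against 20.7 CPM) but 28 of its 34 UMIs lay in 1 barcode.

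The barcodes without C1q and CD163 carried more lysozyme and more S100 proteins. Of 5 genes tested from a list of monocytes and granulocytes, 2 (S100A4 and S100A6) were lower in the C1q or CD163 barcodes and 0 higher (median log2 ratio -1.20). LYZ stood at 1933 CPM in the C1q or CD163 barcodes and 5785 CPM in the others (2.99-fold lower, 2.57 to 3.50), and was seen in 28.2% and 67.5% of barcodes. S100A4, a calcium-binding protein of motile cells, stood at 295 and 921 CPM (3.12-fold lower, 2.099 to 4.74), its relative S100A6 at 98.3 and 735 CPM (7.48-fold lower, 4.02 to 15.1) and the cytochrome CYCS at 115 and 580 CPM (5.05-fold lower). CFP, properdin, which stabilises the alternative complement convertase, stood at 106 and 248 CPM with 13 and 24 UMIs, not past the rule. Among rule genes CD14 (655 and 1335 CPM) and AIF1 (295 and 631) ran the same way, while CD68 (565 and 238) and CSF1R (737 and 362) ran the other; these are descriptions, because a barcode without C1q needed 2 UMIs of the remaining genes to be chosen. CD74 (17979 and 20915 CPM), the antigen presentation list (0 of 4 past the rule) and the immediate-early list (0 of 22, median -0.05) gave no call between the sets. With at least 500 genes per barcode, 8 genes were higher and 2 lower, and LYZ and S100A4 no longer passed (log2 ratios -1.05 and -1.25).

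**Figure D3:**
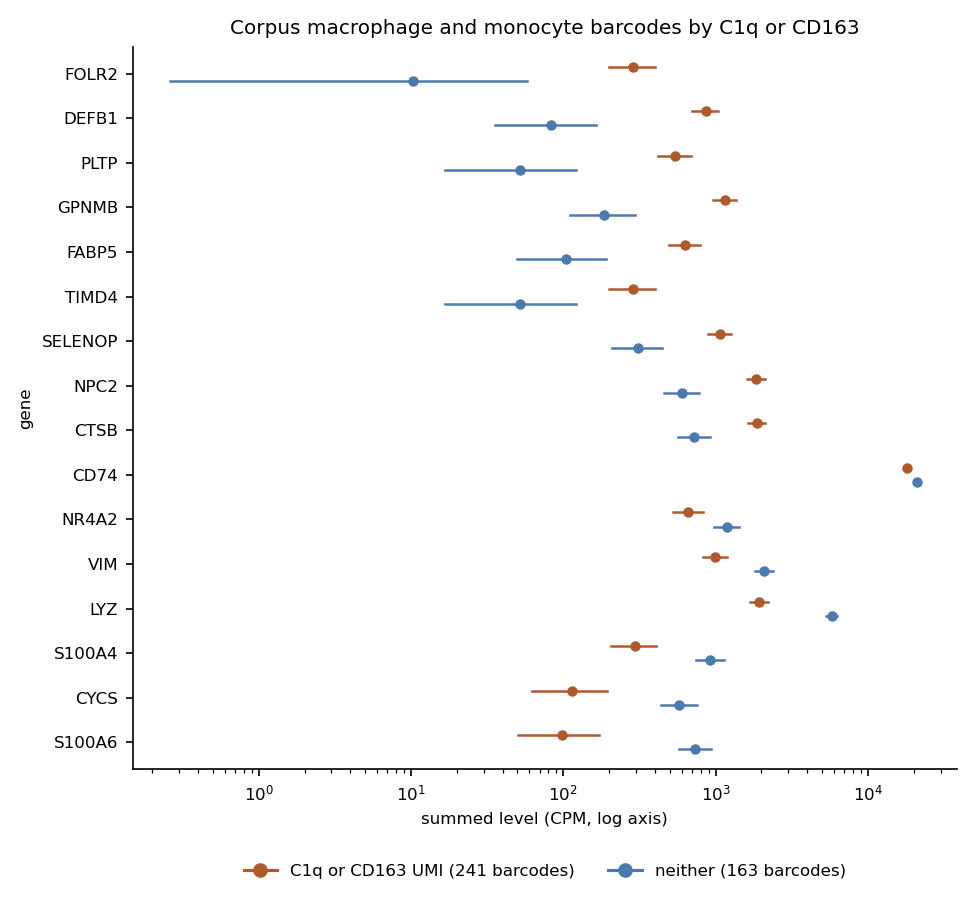
Summed level (CPM, log axis) of 16 genes in the 241 corpus members with a UMI of C1q or CD163 (orange) and the 163 without (blue); points are levels and lines exact Poisson 95% intervals. FOLR2, DEFB1 and PLTP lie far to the right in orange, CD74 nearly coincides, and LYZ, S100A4, CYCS and S100A6 lie to the right in blue.

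The caput barcodes chosen by the same rule, the likest set in the series, differed in makeup. Their share of the library differed as well, but the intervals overlapped once depth was made equal. The rule chose 4.20% of corpus and 7.39% of caput barcodes (6.87 to 7.93), but 3.05% (2.71 to 3.42) and 3.37% (3.01 to 3.75) once every barcode was thinned to 300 UMIs, which left out 165 corpus and 0 caput barcodes. The share with C1q or CD163 was 59.7% in corpus against 86.4% in caput (83.7 to 88.9), and 65.3% (59.5 to 70.8) against 92.2% (88.6 to 94.9) after thinning. At equal depth the intervals overlapped for the share of barcodes chosen and did not for the makeup. C1q and CD163 are themselves genes of the rule. The makeup is therefore a description, and it depends on which barcodes the other rule genes let in. The barcodes without C1q and CD163 were not alike in the regions either. Caput had 95 of them, with CTSW at 93.1 CPM in corpus and 759 in caput, KLRK1 at 41.4 and 389, and CD74 at 20915 and 2168. In that subset 95 of 1229 genes were higher in corpus (7.73%) and 86 lower (7%).

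Across all chosen barcodes, 97 of 7971 genes were higher in corpus than in caput (1.22%) and 197 lower (2.47%). Because the makeup differs, values are given for the C1q or CD163 barcodes of both regions as well, 241 in corpus and 605 in caput. There 49 of 6523 genes were higher (0.751%) and 128 lower (1.96%). The second set of barcodes is contained in the first, so the comparisons are not independent.

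GPNMB was past the rule in both sets and after thinning. It stood at 722 CPM in corpus against 90.2 in caput (8.01-fold, 6.21 to 10.4), and at 1147 against 101 CPM among C1q or CD163 barcodes (11.4-fold, 8.75 to 14.9). With the rule applied after thinning it had 81 UMIs in corpus and 10 in caput in such barcodes (log2 ratio 3.60). Thinned to equal depth, 9.21% of corpus C1q or CD163 barcodes (5.86 to 13.6) and 2.64% of caput ones (1.52 to 4.26) carried a UMI, against 0.752% and 0.638% of T and NK barcodes. T and NK barcodes stood at 15.2 CPM in corpus and 25.8 in caput and stromal ones at 11.3 and 29.9, so neither class had the higher value in corpus. Similar in both sets were HCAR2, a receptor for hydroxybutyrate and niacin (187 against 20.1 CPM, 9.31-fold, and 188 against 19.1 CPM, 9.85-fold), C5AR1 (3.90-fold and 3.86-fold) and the iron exporter SLC40A1 (146 against 37.6 CPM, 3.89-fold, and 221 against 41.3 CPM, 5.36-fold). HCAR2 was also higher in corpus in the remaining barcodes (36 UMIs against 6 in caput, 19.4-fold, 8.09 to 56.3), had 6 UMIs against 0 in stromal barcodes and was at 0 in the T and NK barcodes of either region.

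A minority of the monocyte and granulocyte genes were higher in corpus, by folds that moved with makeup and depth. Of 10 genes tested from that list, 4 (S100A4, S100A6, CFP and THBS1) were higher in corpus and 0 lower (median log2 ratio 0.81), and among C1q or CD163 barcodes 1 of 7 (median 0.01). Over all genes tested 1.22% and 0.751% were higher (medians -0.39 and -0.46). S100A4 and CFP are among the markers named beforehand from these data, so their values are descriptions. S100A4 stood at 572 against 37.6 CPM in all members (15.2-fold, 10.7 to 22.0) and at 295 against 26.2 CPM among C1q or CD163 barcodes (11.3-fold, 6.62 to 19.4), and with thinning as well it had 11 and 4 UMIs (log2 ratio 1.999), no longer past the rule. CFP stood at 169 against 11.4 CPM (14.9-fold, 7.72 to 30.5), with too few UMIs among C1q or CD163 barcodes (13 in corpus) to be called. LYZ, outside that list, stood at 3635 against 760 CPM (4.78-fold, 4.34 to 5.27) but at 1933 against 745 CPM (2.60-fold) among C1q or CD163 barcodes, and its log2 ratio of 2.26 became 0.89 there with thinning, no longer past the rule. S100A6 was 7.88-fold higher in all members and 2.50-fold, not past the rule, among C1q or CD163 barcodes. CD74, also outside it, stood at 19276 against 8182 CPM (2.36-fold, 2.27 to 2.44), and its log2 ratio of 1.24 became 0.52 when barcodes were chosen after thinning and 0.31 among such C1q or CD163 barcodes, past the rule in neither. THBS1 (20.9-fold, 7.61 to 71.2) rested on 20 UMIs, 11 of them in 5 barcodes. Higher values in corpus were also seen outside the chosen barcodes. In the remaining barcodes S100A4 was 19.0-fold higher in corpus (11.3 to 33.9), CFP 17.5-fold (6.63 to 58.0) and LYZ 17.2-fold (13.7 to 21.8). That class includes barcodes with 1 UMI of the rule genes, some of which carried CD74 and LYZ. It therefore cannot show whether the excess is particular to macrophages and monocytes. In stromal barcodes S100A4 was 1.85-fold higher in corpus (1.24 to 2.77) and LYZ 5.41-fold (2.61 to 12.6). In T and NK barcodes S100A4 was 11.8-fold higher, on 5 UMIs in corpus and 6 in caput.

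Resident macrophage genes outside the rule gave no call between the regions. Among C1q or CD163 barcodes FOLR2 stood at 287 CPM in corpus against 223 in caput, TREM2 at 139 against 118 and TIMD4 at 287 against 357. CYBB (737 against 579 CPM) lay as close. In all members 0 of 17 resident macrophage genes outside the rule passed in either direction (median log2 ratio -0.22, against -0.39 over all genes), nor did any of 16 phagocytic receptors, 10 interferon-response genes or 58 ribosomal protein genes. Of 34 lysosomal genes 1 was higher (CTSZ, 937 against 381 CPM, 2.46-fold) and 2 were lower. Among the lower was NPC2 (1298 against 5635 CPM, 4.34-fold lower, 3.85 to 4.91), which the epididymal epithelium also secretes. NPC2 stood at 4186 CPM in caput T and NK barcodes.

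**Figure D4:**
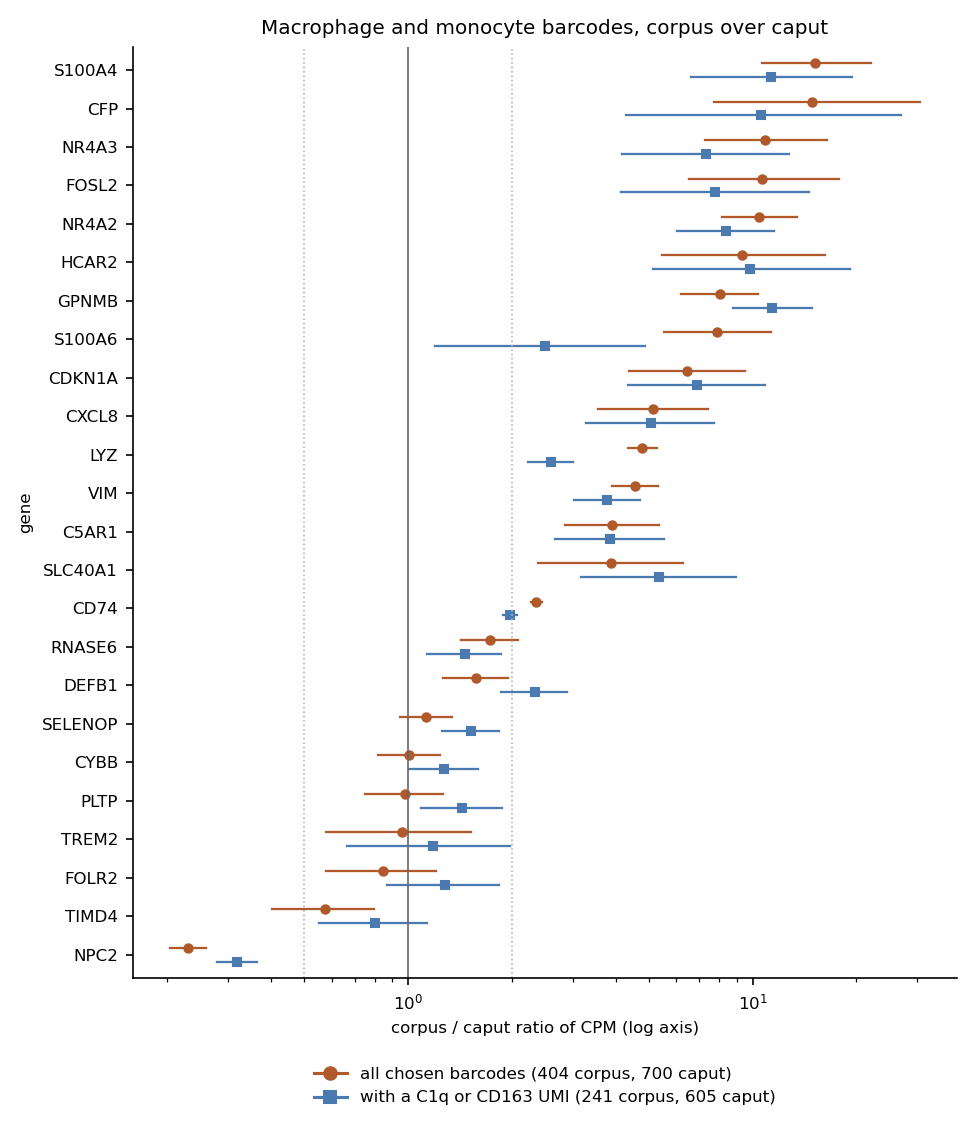
Ratio of the summed level in corpus to that in caput (log axis) for 24 genes, in all barcodes chosen by the rule (orange circles, 404 corpus and 700 caput) and in those with a UMI of C1q or CD163 (blue squares, 241 and 605); lines are exact conditional binomial 95% intervals, the solid line marks equal levels and the dotted lines 2-fold. S100A4, NR4A2, HCAR2 and GPNMB lie well above 2-fold in both sets, S100A6 and LYZ lie closer to 1 in the second, FOLR2, TREM2 and TIMD4 lie near 1, and NPC2 lies below 1.

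Secretory genes of the caput lining and germ-cell genes were among those lower in corpus. The luminal list gave 17 of 20 tested genes lower and 1 higher (median log2 ratio -6.08). DEFB119, an epididymal beta-defensin, had 0 UMIs in the corpus members and 3346 CPM in the caput members (at least 244-fold lower), and the sperm-binding protein gene BSPH1 stood at 27.4 against 3666 CPM. The same genes stood in other caput classes, DEFB119 at 3243 CPM in caput T and NK and 2621 in caput stromal barcodes. The whole luminal list summed to 14365 CPM in the caput members and 14216 in caput T and NK barcodes. Germ-cell genes followed this pattern, 6 of 12 being lower, and their list summed to 54.9 CPM in the corpus members against 741 in the caput members and 761 in caput T and NK barcodes. In the other direction APOE (2675 against 723 CPM, 3.70-fold) stood at 23404 CPM in corpus stromal barcodes, and IDO1 (6031 against 2034 CPM, 2.96-fold), was at 3921 against 2247 CPM in T and NK and 7655 against 1345 in epithelial barcodes. With genes left out that stood at least 3-fold higher in another class of the region where they were higher, 93 genes remained higher in corpus and 118 lower.

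Immediate-early genes, which are switched on within minutes to hours of a stimulus and also by tissue dissociation, were higher in corpus as a list. Of 27 tested, 18 were higher in corpus and 0 lower (median log2 ratio 1.73), against 1.22% of all 7971 genes higher (median -0.39). Among C1q or CD163 barcodes 14 of 21 were higher and 0 lower (median 1.65), against 0.751% of all 6523 genes higher (median -0.46). NR4A2 had been named beforehand as a marker from these data, so its values are descriptions. NR4A2, a nuclear receptor, stood at 896 against 85.8 CPM (10.4-fold, 8.16 to 13.5) and among C1q or CD163 barcodes at 663 against 79.5 CPM (8.34-fold, 6.04 to 11.5). At equal depth 14.6% of corpus C1q or CD163 barcodes (10.4 to 19.8) and 2.15% of caput ones (1.15 to 3.65) had an NR4A2 UMI, against 6.02% and 3.51% of T and NK barcodes. NR4A3 (361 against 33.3 CPM, 10.9-fold), the AP-1 subunit FOSL2 (242 against 22.8 CPM, 10.6-fold) and the cell-cycle inhibitor CDKN1A (288 against 44.6 CPM, 6.45-fold) were higher too. After thinning FOSL2 had 15 UMIs in corpus and 5 in caput (log2 ratio 1.64) and no longer passed.

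The list was higher in corpus in other classes too, in epithelial and remaining barcodes by at least as large a fold as in the members. The summed immediate-early list stood at 19761 against 7215 CPM in the members (2.74-fold), 9924 against 5775 in T and NK (1.72-fold), 5934 against 2980 in stromal (1.99-fold), 3100 against 1106 in epithelial (2.80-fold, 2.50 to 3.14) and 2999 against 577 CPM in the remaining barcodes (5.20-fold). Single genes did not share 1 order. NR4A2 was 10.4-fold higher in corpus members, 6.98-fold (5.63 to 8.69) in the remaining barcodes, 2.15-fold (1.16 to 3.71) in T and NK and 1.80-fold (1.17 to 2.78) in stromal barcodes. FOSL2 was 10.6-fold higher in members and 1.06-fold (0.76 to 1.49) in stromal barcodes. FOS, by contrast, was 2.39-fold higher in members (2.21 to 2.58), below the 3.45-fold (3.15 to 3.79) of stromal barcodes, and ATF3 was 4.18-fold higher in members and 7.61-fold (4.94 to 12.2) in stromal barcodes. In the remaining barcodes FOS was 8.16-fold and ATF3 9.82-fold higher. That class differed in makeup, its luminal secretory list summing to 585 CPM in corpus and 22396 CPM in caput. Makeup and region cannot be told apart in its ratios. The part that storage or digestion had in these values was not tested.

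**Figure D5:**
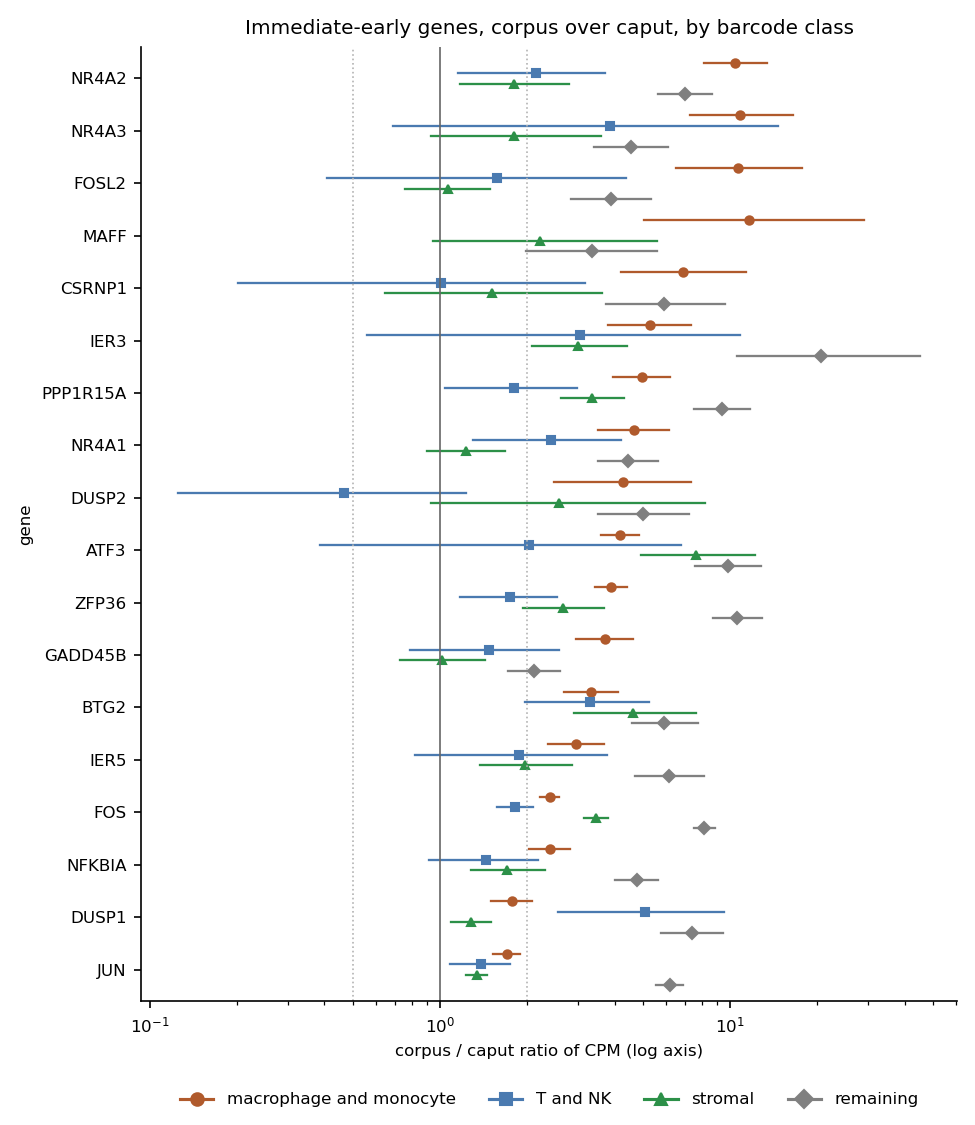
Ratio of the summed level in corpus to that in caput (log axis) for immediate-early genes in the barcodes chosen by the rule, T and NK, stromal and remaining barcodes; points are ratios and lines exact conditional binomial 95% intervals. NR4A2 and FOSL2 are farthest to the right in the chosen barcodes, FOS and ATF3 are not, and MAFF has no point for T and NK barcodes, with 0 UMIs there in corpus.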

How the data were processed

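Single-cell RNA of 3 donkey libraries was read from deposited UMI counts, which are unnormalized whole numbers written by PISA 0.12, per the file headers. Cell Ranger 2.1.1 appears in the submitters' processing notes with no role. For aligner and build, none is given in the sources used here. Of 18266 features with a locus identifier, 749 took a symbol from a RefSeq gene table (names only), TYROBP among them. All barcodes were kept, with no clustering.

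Counts were summed per class. Members are as defined above. Stromal and epithelial barcodes had at least 3 UMIs of marker genes, and many caput epithelial cells lie among the remaining barcodes, because the epithelial genes are mostly those of corpus. A gene outside the rule counted as tested where the side with the higher CPM had at least 20 UMIs. CPM carry exact Poisson, shares Clopper-Pearson and ratios conditional binomial intervals (95%). Median log2 ratios use a pseudocount of 0.5 UMIs. On simulated data with 200 genes changed 4-fold or 8-fold, the intervals and calls were checked before use. The simulated counts were independent Poisson draws, as the intervals assume. That check therefore does not cover genes whose UMIs are concentrated in few barcodes. Named genes are, per direction, the 12 with intervals farthest from 1 and up to 4 per list; genes named without passing a threshold, such as those given as close between regions, were chosen after their values were seen. The members, the gene lists and the markers S100A4, CFP and NR4A2 were chosen with earlier results of these data known. The work ran in Python 3.11.15 with pandas 2.3.3, scipy 1.17.1, numpy 2.4.6 and, for figures, matplotlib 3.10.9. Alternatives changed 1 choice at a time: thinning to 300 UMIs, minimum genes, UMIs, fold and rule sum, scaling, and removal of deep, merged-bead or low-ribosomal barcodes.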

Additional observations from a re-analysis of the deposited data

How the results depend on the processing

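The number of chosen barcodes was 267 with at least 3 rule UMIs and 105 with at least 500 genes, and 288 to 402 under the other alternatives. Counts that moved are given as genes higher and lower. Against all other corpus barcodes these were 182 and 113 with at least 500 genes, 261 and 109 after thinning to 300 UMIs, 184 and 16 with a 4-fold rule, and 91 and 1 when the rule had to be met against T and NK, stromal and epithelial barcodes alike. A minimum of 50 UMIs left 283 higher, and leaving out barcodes below the ribosomal median 281. Scaling by the median ratio, which removed a log2 shift of -0.45, left 67 lower, so that higher calls took 91.4% of all calls in place of 69.4%. Against T and NK barcodes the counts were 35 and 10 with at least 500 genes, 53 and 4 after thinning and 39 and 7 with a 4-fold rule. Those lower were 11 without the 5% deepest barcodes, 53 with a minimum of 10 UMIs and 8 with 50. Against caput they were 54 and 95 with at least 3 rule UMIs, 46 and 86 with at least 500 genes, 21 and 37 after thinning, 17 and 76 with a 4-fold rule, 49 and 128 among C1q or CD163 barcodes, and 15 and 28 among these after thinning. There 59 were higher with a minimum of 50 UMIs. Those lower were 99 without the 5% deepest barcodes, 123 without merged beads, 129 without TYROBP, 118 without genes 3-fold higher in another class and 86 among barcodes without C1q and CD163. Median-ratio scaling (shift -0.17) brought higher calls to 43.7% in place of 33.0%. Between C1q or CD163 members and the others, 8 and 2 remained with at least 500 genes, 10 and 3 after thinning and 6 and 1 with a 4-fold rule. There 16 were higher without TYROBP and 10 with a minimum of 50 UMIs. Among named genes, HSPH1 reversed between corpus and caput (log2 ratio -0.092, 10 and 17 UMIs) in C1q or CD163 barcodes after thinning, and GNLY reversed (-0.34) among members without UMIs of 5 NK genes, itself included, where both sets are at 0 by construction. The alternatives on TYROBP, on C1q or CD163 barcodes and on NK genes were chosen after seeing the data. The cause of these shifts was not tested, beyond the fewer barcodes or UMIs that thinning and minimums leave. No paired analysis was possible because each region has 1 library.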

Other observations

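A call needs 20 UMIs on the higher side, which equals 91.4 CPM in the corpus members and 17.5 CPM in the caput members, so a gene below 91.4 CPM in both regions was open to a call lower in corpus and not to one higher. A gene at 0 UMIs in the corpus members has an upper limit of 13.7 CPM. Barcodes with 1 UMI of the rule genes were left out, and some of them carried CD74 and LYZ. Doublets and free RNA were not removed. The intervals hold no spread between animals.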
